A study of Mus musculus with 4 samples.

Results

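The expression of 40 proliferation genes was examined in mouse ovaries at embryonic stage E13.5, in which Sall1, the gene of a zinc-finger transcription factor, was overexpressed. They were named for their known roles, as 18 genes of DNA replication (S phase) and 22 genes of mitosis (M phase), among 34682 gene rows of the count table. Of these, 39 had enough counts to be tested, together with 15442 genes in all, and the S phase gene Cdc6 was listed at 0 in every library.

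RNA was sequenced from 4 libraries, 2 from mutant ovaries and 2 from wild-type (Wt) ovaries, numbered replicates 1 and 2 in each group. The mutants carried a bacterial artificial chromosome (BAC) in which the coding sequence of Sall1 replaced Wt1, so that the regulatory elements of Wt1, which are active in gonadal somatic cells and not in germ cells, drove the transgene. The construct had been integrated into female embryonic stem cells (C57BL/6J, or a hybrid of it named C57BL/6J-129), and mutant mice were made by morula aggregation. The sources differ on the control strain, since the study's text calls the controls littermates, its methods name CD1 gonads, and the wild-type columns of the count table carry the tag B6. Strain and transgene can therefore not be told apart. No label says whether ovaries were pooled, or that the libraries came from separate animals, so p-values measure the spread between these libraries only, which may be technical.

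Libraries held between 11036313 and 17869840 counts, the mutant libraries being the 2 shallower ones. Sall1 was counted 1243 and 1445 times in mutant replicates 1 and 2, and 279 and 223 times in the wild-type libraries, a log2 fold change of 2.85 ± 0.16 (SE, n = 2 per group, Benjamini-Hochberg adjusted p in edgeR's quasi-likelihood test = 0.00823). Wt1 had a log2 fold change of 0.03 ± 0.10 (SE). The pre-granulosa marker Foxl2 and the germ cell markers Ddx4 and Dazl were detected in all 4 libraries.

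Before DNA is copied, the helicase subunits Mcm2 to Mcm7 are loaded on replication origins with the help of Cdc6 and Cdt1, and the enzymes that make deoxynucleotides and DNA follow. Their genes are transcribed around the G1/S boundary through E2F factors. Genes of mitosis are transcribed later, from promoters that often hold NF-Y boxes and a CHR element, the latter bound by the DREAM and MuvB-B-Myb complexes. In the mouse ovary around E13.5, germ cells leave the mitotic cycle, copy their DNA once more and enter meiosis, while pre-granulosa cells divide slowly, so whole-ovary RNA mixes cells of different cycle states. In such bulk RNA, fewer cells of a type and less RNA per cell cannot be told apart.

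The sequence around the gene starts was compared between the S phase and M phase genes. Promoters of RefSeq genes (assembly GRCm38.p6, 250 bases before to 50 after the gene's start) were available for 14 S phase and 18 M phase genes, 32 of the 40. Both strands were searched for the E2F words TTTCCCGC, TTTCGCGC, TTTGCCGC and TTTGGCGC, which can overlap each other on opposite strands, for the NF-Y box CCAAT, and for the CHR word TTTGAA. Matches are given in capitals below, in the 170 bases before the start, written 5′ to 3′ on the gene's strand. The sequences of 3 helicase genes are shown because E2F words were more frequent in S phase than in M phase promoters. They are those of Mcm5 (chr8:75109339-75109508, plus strand), Mcm6 (chr1:128359706-128359875, minus strand) and Mcm7 (chr5:138171884-138172053, minus strand).
Mcm5: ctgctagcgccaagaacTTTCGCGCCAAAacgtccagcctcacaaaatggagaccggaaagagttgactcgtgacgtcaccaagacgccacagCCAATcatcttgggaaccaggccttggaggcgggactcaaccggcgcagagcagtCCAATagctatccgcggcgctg
Mcm6: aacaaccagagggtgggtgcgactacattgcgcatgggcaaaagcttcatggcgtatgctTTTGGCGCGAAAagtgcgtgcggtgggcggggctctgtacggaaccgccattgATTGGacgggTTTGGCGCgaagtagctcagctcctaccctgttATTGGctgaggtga
Mcm7: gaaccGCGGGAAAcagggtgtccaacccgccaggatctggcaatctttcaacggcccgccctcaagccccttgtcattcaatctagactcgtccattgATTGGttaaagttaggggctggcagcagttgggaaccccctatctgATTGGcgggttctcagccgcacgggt

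In Mcm5 and Mcm6 a pair of E2F words on opposite strands overlapped in the leftmost capitals. In Mcm7 the single E2F word of the stretch shown lay on the opposite strand, and another lay after the start. The shorter capitals are NF-Y boxes on either strand. For the M phase the same stretch is shown for the kinase gene Cdk1, the topoisomerase gene Top2a and the anaphase activator gene Cdc20, where CHR words and NF-Y boxes stand close to the start. These are Cdk1 (chr10:69352913-69353082, minus strand), Top2a (chr11:99024190-99024359, minus strand) and Cdc20 (chr4:118437344-118437513, minus strand).
Cdk1: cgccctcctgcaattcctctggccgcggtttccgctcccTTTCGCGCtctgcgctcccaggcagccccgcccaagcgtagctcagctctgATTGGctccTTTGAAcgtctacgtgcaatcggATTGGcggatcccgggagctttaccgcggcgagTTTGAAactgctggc
Top2a: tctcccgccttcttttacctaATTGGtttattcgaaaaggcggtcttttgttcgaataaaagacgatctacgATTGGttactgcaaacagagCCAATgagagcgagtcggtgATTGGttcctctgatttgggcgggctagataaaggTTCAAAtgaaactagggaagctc
Cdc20: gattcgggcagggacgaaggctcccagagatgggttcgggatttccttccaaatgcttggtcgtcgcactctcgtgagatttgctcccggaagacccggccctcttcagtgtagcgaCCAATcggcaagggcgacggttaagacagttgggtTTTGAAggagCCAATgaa

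Cdk1 was the one M phase promoter that also held an E2F word, the leftmost capitals in its sequence. An E2F word was found in 7 of 14 S phase promoters (50%) and 1 of 18 M phase promoters (5.56%), where 2.32% of all 27025 gene promoters held one. The CHR word was present in 13 M phase promoters (72.2%) and 2 S phase promoters (14.3%), and in 18.1% of all promoters. NF-Y boxes were found in 88.9% of M phase and 71.4% of S phase promoters, against 37.9% of all. Each of the 13 M phase promoters with a CHR word also held an NF-Y box, a combination present in 7.12% of all promoters. When only the 250 bases before the start were searched, the CHR share of the M phase promoters was 38.9%, against 16.3% of all promoters. The E2F share of the S phase promoters was then 35.7%, against 1.91% of all. It was 10.3% for further replication genes, 40% for G1 and E2F regulators and 10.2% for further mitosis genes. A match is a match of letters and no evidence of binding.

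**Figure D1:**
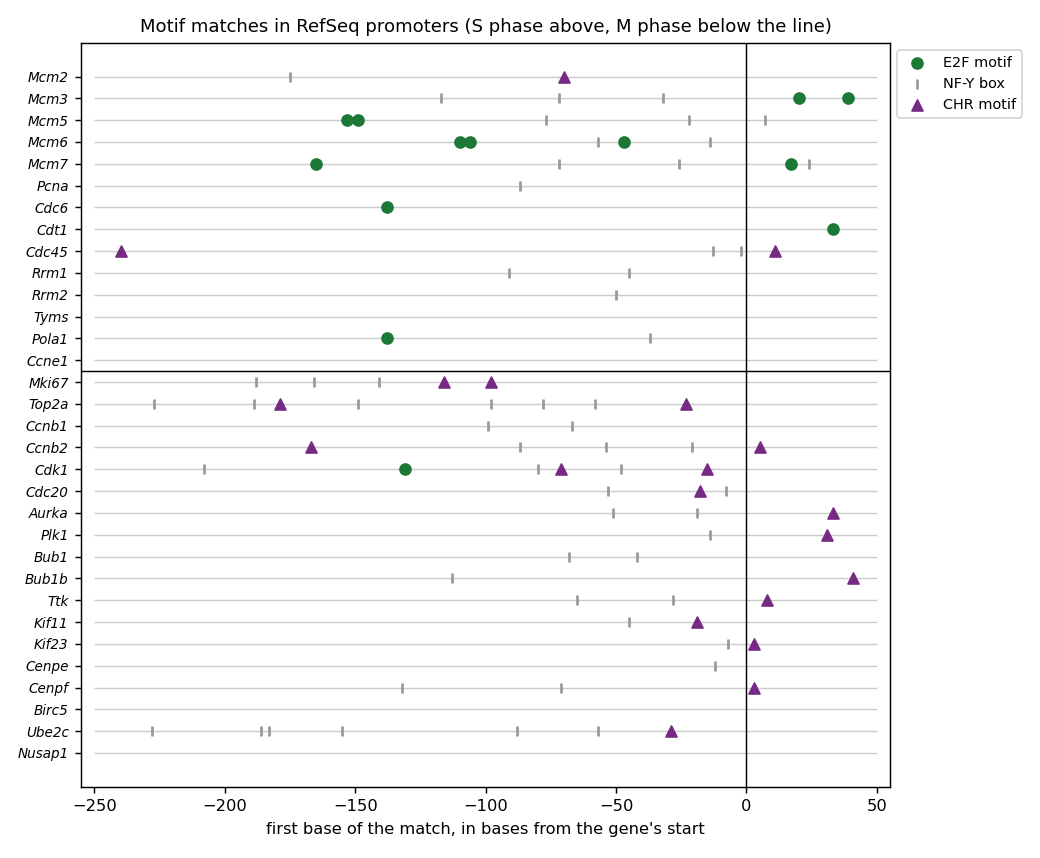
Matches to the E2F, NF-Y and CHR words along each of the 32 promoters found, one line per gene, with the position in bases from the gene's start on the x axis, S phase genes above and M phase genes below the horizontal line. Circles (E2F) lie in 7 S phase promoters and in Cdk1, and triangles (CHR) mainly in the M phase promoters, where several lie just after the start.

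To ask whether proliferation genes differed between Sall1-overexpressing and wild-type ovaries, all genes were tested in a single fit. By edgeR's quasi-likelihood test at a Benjamini-Hochberg adjusted p of 0.05, 0 of 39 were called, where 9 of 15442 genes (0.0583%) were, 2 of them higher (0.013%) and 7 lower (0.0453%) in the mutant. DESeq2 also called 0 of the 39, and 105 of all genes. At an unadjusted p under 0.05 edgeR gave 1 gene, Rrm1, where 5.69% of all genes lay under it. Of the S phase genes, 16 of 17 had a log2 fold change below 0, with a median of -0.13, a range from -0.23 (Gins2) to 0.09 (Ccne2) and a median SE of 0.11. Without wild-type replicate 2 the median was -0.0534 with 11 of 17 below 0, and without mutant replicate 1 it was -0.0806 with 13. M phase genes had a median of -0.07, with 18 of 22 below 0, a range from -0.23 (Aurkb) to 0.21 (Cenpf) and a median SE of 0.12. Their direction depended on the libraries, since the median was 0.0193 with 7 of 22 below 0 without mutant replicate 2, -0.0037 with 11 without wild-type replicate 1, and -0.22 with 19 without mutant replicate 1. Over all genes tested 50.2% lay below 0 and the median SE was 0.16.

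Summed over the 17 S phase genes, the level was 2723 and 2746 CPM (library-size-scaled counts with TMM factors) in mutant replicates 1 and 2, and 2950 and 3001 CPM in the wild-type replicates. The mutant mean was thus 0.919 times the wild-type mean (2734 ± 16.4 against 2975 ± 36.01 CPM, SD, n = 2 each), and the groups did not overlap. Most of these means came from the 6 helicase genes Mcm2 to Mcm7 (1782 and 1928 CPM). For the 22 M phase genes the sums were 3734 and 3127 CPM in the mutants and 3597 and 3441 CPM in the wild-type libraries. Here mutant replicate 1 was the highest and mutant replicate 2 the lowest of the 4 libraries, so the groups overlapped, with a ratio of means of 0.975. No test is given for these sums, because 2 libraries against 2 cannot reach an exact permutation p below 0.333.

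**Figure D2:**
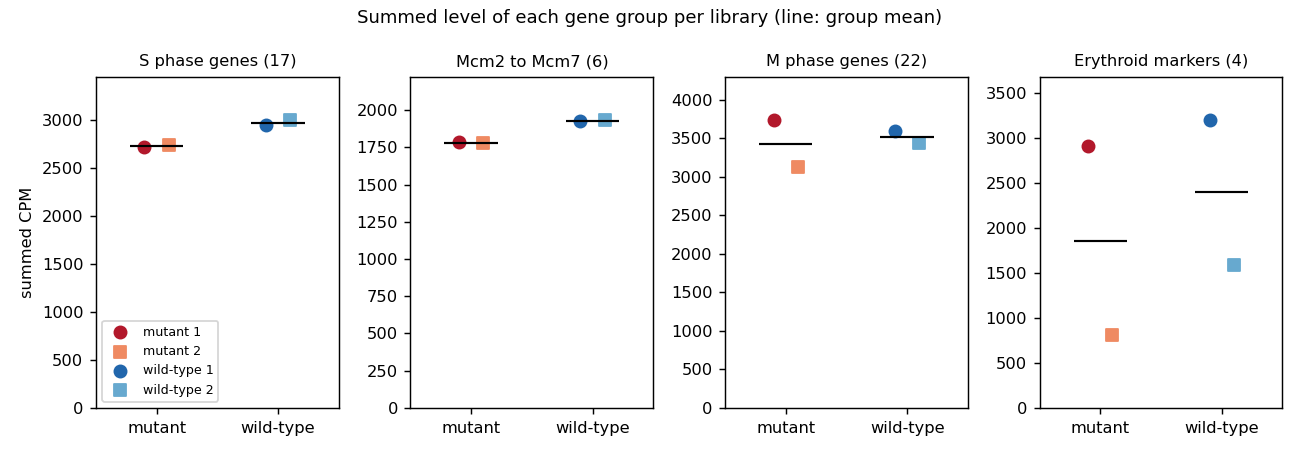
Summed CPM of the S phase genes, the 6 helicase genes, the M phase genes and 4 erythroid markers in each library, with mutant and wild-type libraries side by side, circles for replicate 1, squares for replicate 2 and a line at each group mean. The S phase sums of the mutants (2723 and 2746) lie below those of the wild-type libraries (2950 and 3001), whereas the M phase and erythroid sums differ most between mutant replicates.

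Among the S phase genes, 7 of 17 (41.2%) had lower CPM in both mutant libraries than in either wild-type library, and 0 were higher in both. Of all genes tested, 15.1% were lower and 15.8% higher in this sense, 30.9% together. The 7 were the 6 subunits of the replicative helicase, Mcm2 to Mcm7, and Rrm1. Since 6 of them code for 1 complex and were read in the same 4 libraries, they are not independent observations. Mcm6 was lower only narrowly, at 438.8 and 432 CPM in the mutants against 450.5 and 444.8 CPM in the wild-type libraries. The M phase genes had 3 of 22 (13.6%) lower in both mutants, Cdk1, Bub1b and Nusap1, and 1 (4.55%) higher, Cenpf, both shares under those of all genes.

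E2F words are shown above for the helicase genes Mcm5, Mcm6 and Mcm7 only. Those of Mcm3 lay after the start, the Mcm2 promoter held 0 E2F words and a CHR word, and no promoter of Mcm4 was available. The helicase genes, whose protein products form one ring, had a summed level that varied little between replicates. Even so, 3 of the 6 had a replicate gap larger than their own fold change. The sum was 1787 and 1778 CPM in the mutants and 1925 and 1932 CPM in the wild-type libraries, a ratio of means of 0.924 (SD 6.27 and 4.72 CPM, n = 2 each). It is the larger part of the S phase sum given above and not independent of it. Log2 fold changes ran from -0.15 (Mcm7) to -0.04 (Mcm6), and the 95% interval of each included 0.

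Mcm2, a subunit that also binds histones, was measured at 255 and 266 CPM in mutant replicates 1 and 2, and at 270.5 and 305 CPM in the wild-type replicates. The higher mutant library lay only just under the lower wild-type library. Its log2 fold change was -0.14 ± 0.10 (SE, Benjamini-Hochberg adjusted p in edgeR's quasi-likelihood test = 1.000). Mcm4 stood at 225 and 231 CPM in the mutants against 246 and 256 CPM in the wild-type libraries, a log2 fold change of -0.14 ± 0.08 (SE). In this gene the gap between groups was wider than that between the libraries of a group.

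Mcm5 was counted at 284 and 313 CPM in the mutants and at 327 and 331 CPM in the wild-type ovaries, with a log2 fold change of -0.14 ± 0.09 (SE). Mcm7 had 304 and 268 CPM in the mutants and 327 and 309.8 CPM in the wild-type ovaries, with a log2 fold change of -0.15 ± 0.10 (SE). In both genes 1 mutant library lay close to the wild-type range, replicate 2 for Mcm5 and replicate 1 for Mcm7. Mcm3 (log2 fold change -0.11 ± 0.09) and Mcm6 (-0.04 ± 0.08) completed the ring, and Mcm6 had the narrowest spread of its 4 libraries, from 432 to 450.5 CPM. Mcm7 shares exon sequence with Ap4m1, Cops6 and 2 microRNA genes in the GENCODE M1 annotation, so its counts depend on how shared reads were assigned.

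Rrm1, the large subunit of ribonucleotide reductase, had the smallest p of all 39 genes. It was measured at 205 and 198 CPM in mutant replicates 1 and 2, and at 240.2 and 230 CPM in the wild-type replicates. The groups were separated by more than either replicate gap, and the log2 fold change was -0.22 ± 0.09 (SE), a change of -14.2% with a 95% interval from -25.6% to -1.13%. It did not pass after adjustment (Benjamini-Hochberg adjusted p in edgeR's quasi-likelihood test = 0.836, unadjusted p = 0.0379). Its partner Rrm2, the small subunit, had a similar log2 fold change of -0.21 but a wider SE of 0.15, and its groups overlapped.

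Pcna, the sliding clamp of the DNA polymerases, was at 219 and 243 CPM in the mutants and 229 and 276 CPM in the wild-type libraries. Replicate 2 was above replicate 1 in both groups, the groups overlapped, and the log2 fold change was -0.13 ± 0.12 (SE). Ccne2, the cyclin E2 gene, had the widest replicate gap of the S phase genes, at 11.9 and 19.5 CPM in the mutants and 12.2 and 17.4 CPM in the wild-type libraries, a difference between the mutant replicates of -0.71 on the log2 scale. Ccne2 was also the one S phase gene with a log2 fold change above 0, 0.09 ± 0.28 (SE), and its exons share 609 bases with Ints8 on the other strand. Of the remaining S phase genes, Gins1 and Gins2 (subunits of the GINS complex of the helicase), Cdc45 (its partner), Cdt1 (the loading factor), Tyms (thymidylate synthase), Pola1 (the catalytic subunit of the polymerase-primase) and Ccne1 (cyclin E1) had log2 fold changes from -0.23 (Gins2) to -0.01 (Cdc45), all with overlapping groups. Gins2 shares 2758 bases of exon with Gse1 on the other strand, so its value is uncertain.

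Cdc6, the ATPase that loads the helicase with Cdt1, had 0 counts in all 4 libraries. With 3 counts as the floor, this allows up to 0.170 to 0.272 CPM, depending on the library's depth, and the limit covers counting error only. The gene is annotated at chromosome 11, 98769115 to 98785254 (NCBIM37), with no exon shared with another gene. Its promoter held an E2F word. Orc1, of the origin recognition complex, a gene of the further replication list, was also listed at 0 in all 4 libraries. Whether these values reflect the RNA or the counting was not tested, so the limit for Cdc6 is one on counted reads.

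**Figure D3:**
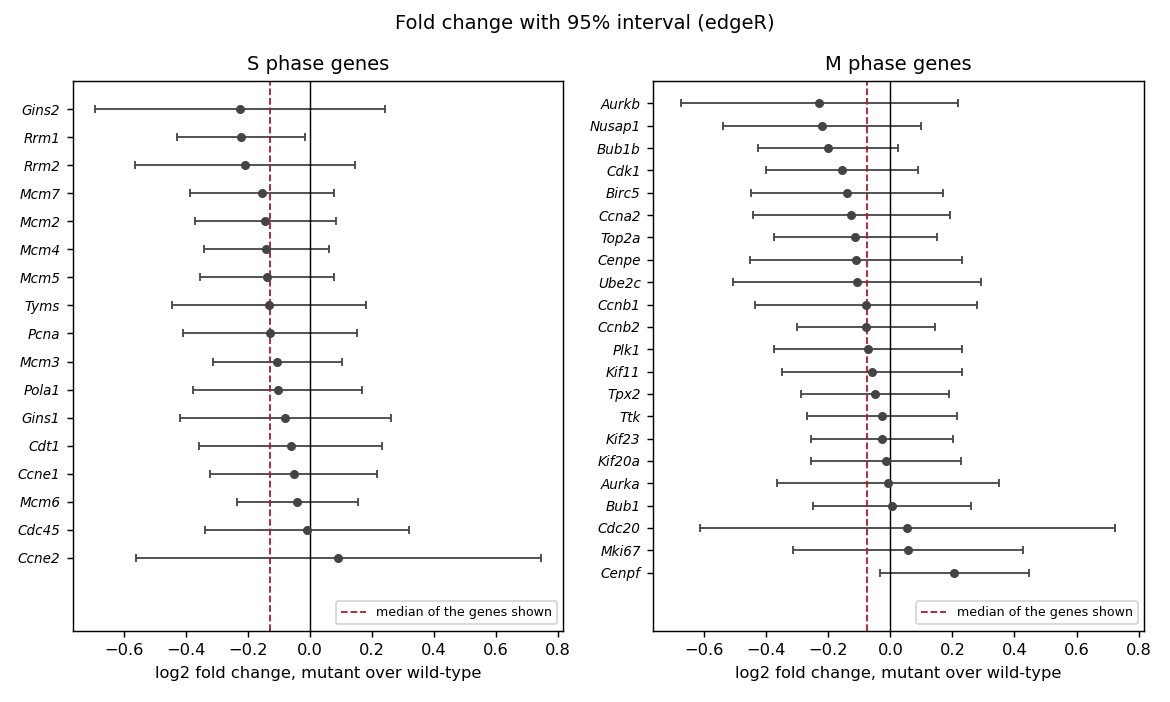
Log2 fold change of each tested S phase gene (left) and M phase gene (right), mutant over wild-type, with its 95% interval from edgeR's fit and a dashed line at the median of the panel. The interval of Rrm1 alone leaves out 0, the S phase median lies at -0.13 and the M phase median at -0.07.

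Among M phase genes, the mitotic kinase Cdk1 and its cyclin Ccnb1 differed in their pattern. Cdk1 was at 95 and 84.6 CPM in mutant replicates 1 and 2, and at 103 and 96.9 CPM in the wild-type replicates. Both mutants lay below both wild-type libraries and the log2 fold change was -0.16 ± 0.10 (SE). Ccnb1, the cyclin B1 gene, was at 205 and 178 CPM in the mutants and 173 and 231 CPM in the wild-type libraries. The wild-type libraries were both its lowest and its highest, and the log2 fold change was -0.08 ± 0.15 (SE).

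The checkpoint gene Bub1b (BubR1) had the smallest p of the M phase genes. It stood at 113 and 102 CPM in the mutants and at 124 and 123 CPM in the wild-type libraries, with a log2 fold change of -0.20 ± 0.09 (SE, Benjamini-Hochberg adjusted p in edgeR's quasi-likelihood test = 0.949). The related Bub1 had a log2 fold change of 0.01 ± 0.11. Nusap1, which codes for a protein that binds spindle microtubules, was at 86.9 and 67.7 CPM in the mutants and 91.7 and 88.2 CPM in the wild-type libraries, with a log2 fold change of -0.22 ± 0.13 (SE). Mutant replicate 2 was the lowest library for both genes, and the wild-type libraries of Bub1b nearly coincided.

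Cenpf, which codes for a large kinetochore protein, lay on the other side. It was at 367 and 325 CPM in the mutants and at 287 and 313 CPM in the wild-type libraries, with a log2 fold change of 0.21 ± 0.10 (SE, Benjamini-Hochberg adjusted p in edgeR's quasi-likelihood test = 0.984). It was the one member above both wild-type libraries in both mutants. Aurkb, the kinase of the chromosomal passenger complex, had the lowest log2 fold change of all, -0.23, with an SE of 0.19. It was at 42.1 and 28.9 CPM in the mutants and 43.9 and 38.9 CPM in the wild-type libraries, so mutant replicate 1 lay within the wild-type range, and without mutant replicate 2 the log2 fold change was 0.02.

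Mki67, the gene of the proliferation marker Ki-67, was at 556.5 and 399 CPM in the mutants and at 479 and 440.3 CPM in the wild-type libraries. The mutant libraries enclosed the wild-type libraries, and the log2 fold change of 0.06 ± 0.16 (SE) became -0.20 without mutant replicate 1. Top2a, which codes for the topoisomerase that untangles sister chromatids, was at 602 and 511 CPM in the mutants against 629 and 574 CPM in the wild-type libraries, a log2 fold change of -0.11 ± 0.11 (SE). Its groups overlapped, and without mutant replicate 2 the difference was 0.00056. Cdc20, the activator of the anaphase-promoting complex, was the least repeatable gene, at 171 and 87.3 CPM in the mutants and 136 and 112 CPM in the wild-type libraries. The gap between its mutant replicates was 0.96 on the log2 scale, beside a log2 fold change of 0.05 ± 0.28 (SE).

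The other M phase genes, Ccna2 and Ccnb2 (cyclins), Aurka, Plk1 and Ttk (mitotic kinases), Kif11, Kif20a, Kif23 and Cenpe (kinesin motors), Birc5 (survivin), Tpx2 (a spindle assembly factor) and Ube2c (the ubiquitin-conjugating enzyme of the anaphase-promoting complex), had log2 fold changes from -0.14 (Birc5) to -0.01 (Aurka). All overlapped between the groups. Exon sequence on the other strand is shared by Kif20a with Cdc23, by Ube2c with Tnnc2 and by Ccna2 with Exosc9, and the strand setting of the counting was not given in the sources used here.

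When mutant and wild-type libraries of the same replicate number were set against each other, the S phase genes gave a similar median difference in both, -0.12 in pair 1 and -0.15 in pair 2 (log2 CPM, prior count 2). The M phase genes gave -0.04 in pair 1 and -0.16 in pair 2. Labels do not say that a number marks a litter or a batch, so the crossed combinations are given too. The S phase median was -0.16 for mutant 1 minus wild-type 2 and -0.06 for mutant 2 minus wild-type 1. For the M phase genes these were 0.07 and -0.28, so the sign of their median depended on which libraries were set against each other. The 4 combinations share libraries and are not independent.

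By gene, 12 of 17 S phase genes (70.6%) lay below 0 in both pairs, 0 lay above 0 in both and 5 had opposite signs. Of the M phase genes, 12 of 22 (54.5%) lay below 0 in both pairs, 1 above in both (Cenpf) and 9 had opposite signs. Over all genes tested 27.3% lay below 0 in both. The differences of Rrm1 were nearly equal, -0.23 in pair 1 and -0.22 in pair 2. Those of Cdc20 were 0.33 and -0.35, those of Ccnb1 0.24 and -0.38, and those of Mki67 0.22 and -0.14.

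**Figure D4:**
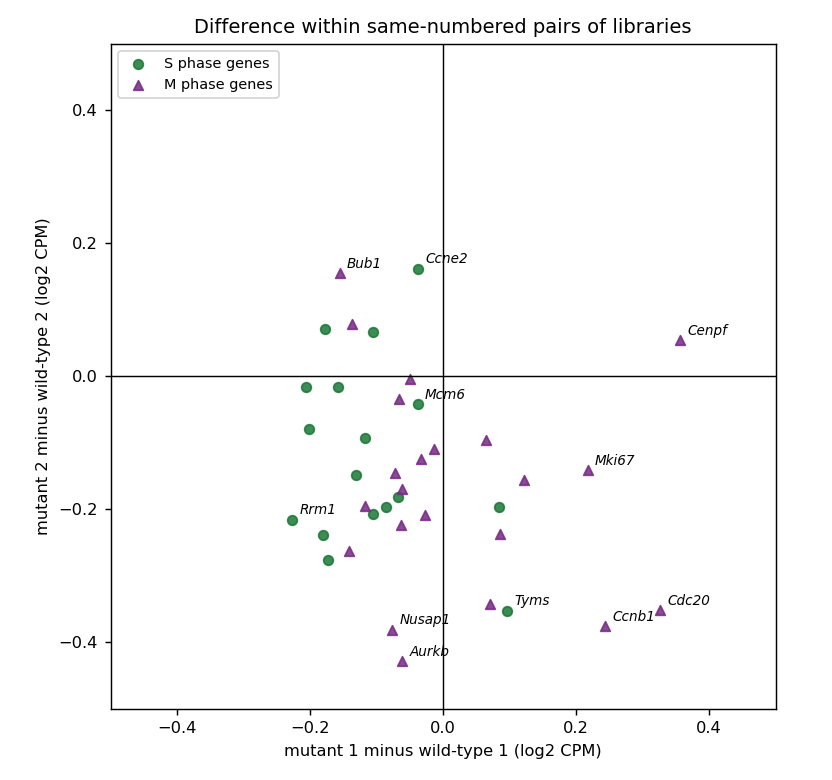
Difference in log2 CPM, mutant minus wild-type, in pair 1 (x axis) and pair 2 (y axis) for each tested gene, green circles for S phase and purple triangles for M phase. Of the 39 genes, 24 lie to the lower left, below 0 in both pairs, 1 (Cenpf) in the upper right, and Cdc20, Ccnb1 and Mki67 lie to the lower right with opposite signs.

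The 2 gene groups differed in how they varied between replicates of a genotype. Between the mutant libraries, 20 of 22 M phase genes were higher in replicate 1, with a median difference of 0.26 on the log2 scale, and between the wild-type libraries 18 of 22 were, with a median of 0.11. In both genotypes this held for 16 of 22 (72.7%), where 32.6% of all genes tested did so. Only 6 of 17 S phase genes (35.3%) were higher in replicate 1 in both, and the medians were -0.04 and -0.05. The larger of a gene's replicate gaps exceeded its fold change for 20 of 22 M phase genes and 13 of 17 S phase genes, and for 78.8% of all genes. The S phase sum divided by the M phase sum was 0.729 in mutant replicate 1 and 0.878 in the other mutant library, around the wild-type values of 0.820 and 0.872.

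Markers of other cells also differed with the replicate number. The 4 erythroid markers reported (globins Hbb-y and Hbb-bh1, Alas2 and Slc4a1) were higher in replicate 1 of both genotypes, and their summed level was 2907 and 808 CPM in mutant replicates 1 and 2 and 3196 and 1592 CPM in the wild-type replicates. A further marker, Hba-a1, was not tested because of its low counts. Meiotic markers (Stra8, Sycp1, Sycp3, Smc1b, Rec8 and Dmc1) summed to 846 and 1146 CPM in the mutants and 1082 and 959 CPM in the wild-type libraries, so they were low where the M phase sum was high in the mutants but not in the wild-type. Germ cell markers lay between 1466 and 1638 CPM. The part of these cells in the replicate differences was not tested.

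Between genotypes, the 3 interstitial markers reported (Tcf21, Pdgfra and Nr2f2) were each lower in both mutants, against 15.1% of all genes. Their sum was 264 and 207 CPM in the mutants against 376 and 339 CPM in the wild-type libraries. Endothelial markers summed to 408 and 383 CPM in the mutants against 423 and 430 CPM, where 1 of 5 (Kdr) was lower in both mutants, against 15.1% of all genes, and 3 of 5 had a log2 fold change above 0 (median 0.01). By edgeR with genotype as the only factor 0 genes of these lists were called. DESeq2, which called 105 genes in all, called Tcf21 and Pdgfra. With the replicate number as a further factor edgeR called Tcf21, Pdgfra, Nr2f2 and Kdr, among 385 calls in all. Pre-granulosa markers (Foxl2, Wnt4, Fst, Irx3, Nr5a1 and Wt1) summed to 1006 and 929 CPM in the mutants and 902 and 912 CPM in the wild-type libraries. Wt1, whose regulatory elements are active in gonadal somatic cells, was at 341 and 292 CPM in the mutants. It was at 309 CPM in each wild-type library, so the sum is not a measure of pre-granulosa cells alone. Macrophage markers summed to between 31.6 and 52.4 CPM, and mesonephric epithelium markers to between 151 and 178 CPM. Among the 6 pre-granulosa markers 3, Foxl2, Irx3 and Fst, were higher in both mutants, against 15.8% of all genes. The 6 mesonephric markers went in different directions, with log2 fold changes from -0.45 to 1.10, 3 of them below 0. Of these 1 (16.7%) was higher and 0 lower in both mutants. Of the macrophage markers Adgre1 had too few counts to be tested. The part of any of these cells in the S phase differences was not tested.

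Levels of different genes were compared as CPM per kb of the longest protein-coding transcript, averaged over the 4 libraries. Pcna was highest at 159 CPM per kb, followed by Top2a (111), Mcm7 (102), Mcm6 (101), Mcm3 (94.9), Mcm5 (91.8) and Ccnb2 (91.2). The order from Mcm7 to Ccnb2 did not exceed the spread of the libraries, since Mcm7 alone ran from 90.6 to 110 CPM per kb. The lowest were Gins2 at 5.67 and Ccne2 at 5.07 CPM per kb. This order depended on the length used. With merged exons Mcm6 was first at 101 CPM per kb and Pcna had 100.7, while Top2a had 63.8 and took place 10, and Mcm7 had 68.3 and took place 7.

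Some families had the same order of levels per kb in all 4 libraries. Ccne1 was 4.38 to 7.38 times the level of Ccne2, Aurka 1.40 to 1.76 times that of Aurkb, and Bub1 1.65 to 2.20 times that of Bub1b. Rrm1 and Rrm2 had a ratio between 0.981 and 1.202, and Ccnb1 and Ccnb2 between 0.731 and 1.01, so with this length neither was above the other in every library. With merged exon lengths the ratio was 1.24 to 1.52 for Rrm1 over Rrm2 and 0.432 to 0.595 for Ccnb1 over Ccnb2, while the other 3 pairs kept their order.

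**Figure D5:**
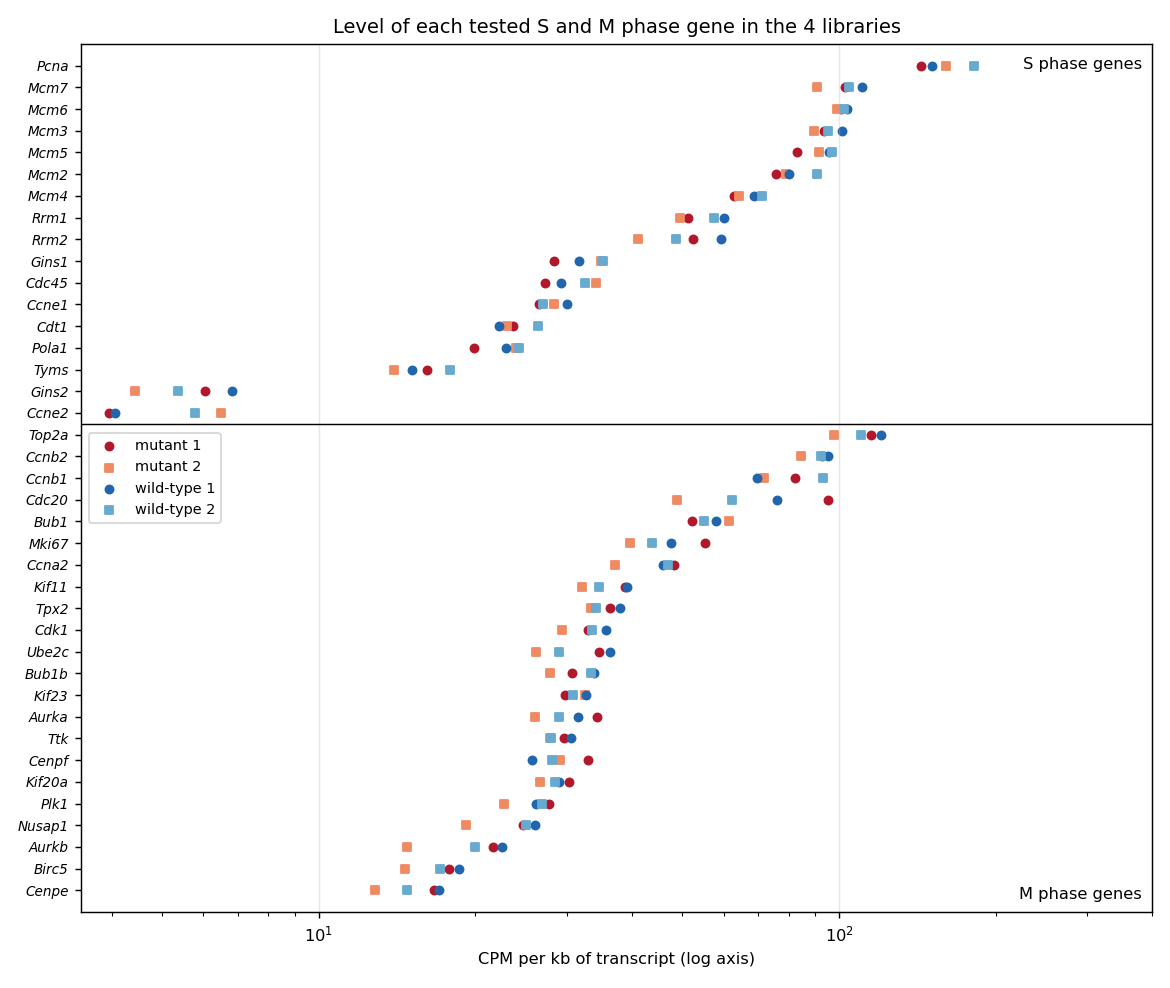
Level of each tested S phase gene (above the line) and M phase gene (below) in the 4 libraries, in CPM per kb of transcript on a log axis, red and orange for mutants and dark and light blue for wild-type libraries. The points of a gene lie close together beside the range between genes, from 5.07 (Ccne2) to 159 (Pcna), and are widest apart for Ccne2 and Cdc20.

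Other genes of the cycle were examined in lists that do not hold the 40 genes. With genotype as the only factor, edgeR's quasi-likelihood test called 0 in each. With the replicate number as a further factor it called Ccnd1, Cdkn1c and Cdkn1b, where 385 of all genes were called. Of 45 further replication genes tested, 36 (80%) had a log2 fold change below 0 (median -0.06), beside 50.2% of all genes. In both mutants 15 (33.3%) were lower and 2 (4.44%) higher, where 15.1% and 15.8% of all genes were. The smallest p belonged to Uhrf1, which maintains DNA methylation behind the fork, at 136 and 125 CPM in the mutants against 161 and 165 CPM in the wild-type libraries, a log2 fold change of -0.33 ± 0.09 (SE, Benjamini-Hochberg adjusted p in edgeR's quasi-likelihood test = 0.530). Rfc3, a clamp loader subunit, followed with -0.19. In the other direction stood Orc5, of the origin recognition complex, with 0.14, and the helicase gene Mcm8 with 0.13.

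Of 69 further mitosis genes tested, 53 lay below 0 (median -0.07), 13 (18.8%) were lower and 3 (4.35%) higher in both mutants, beside 15.1% and 15.8% of all genes. The kinetochore genes Spc25 (-0.19) and Cenph (0.19), the phosphatase gene Cdc25b (-0.26) and the kinase gene Pbk (0.11) had the smallest p in their directions. Among 26 genes of G1 and E2F control, 18 lay below 0, with a median of -0.08. Of these 26 genes 7 (26.9%) were lower and 0 higher in both mutants, beside the same shares of all genes. Ccnd1, the cyclin D1 gene, was at 68.9 and 67.9 CPM in the mutants and 91.1 and 85.8 CPM in the wild-type libraries, a log2 fold change of -0.37 ± 0.10 (SE, Benjamini-Hochberg adjusted p in edgeR's quasi-likelihood test = 0.477). Myc stood at -0.62 ± 0.27. Above 0 the smallest p belonged to Cdk2 (0.07) and Lin37 (0.08).

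The 2 inhibitors of cyclin-dependent kinases with the smallest p, both of the Cip/Kip family, lay on opposite sides. Cdkn1c (p57) was at 240.3 and 207 CPM in the mutants and 302 and 309 CPM in the wild-type libraries, with a log2 fold change of -0.45 ± 0.10 (SE, Benjamini-Hochberg adjusted p in edgeR's quasi-likelihood test = 0.347). Cdkn1b (p27) was at 259 and 262 CPM in the mutants and 150.3 and 211 CPM in the wild-type libraries, with a log2 fold change of 0.53 ± 0.16 (SE, Benjamini-Hochberg adjusted p in edgeR's quasi-likelihood test = 0.575). Neither pair of groups overlapped, and the wild-type libraries of Cdkn1b differed by more than its mutant libraries did. Of the 7 inhibitors 1 (14.3%) was thus lower and 1 (14.3%) higher in both mutants, beside 15.1% and 15.8% of all genes. DESeq2, which called 105 genes in all, called Cdkn1c (adjusted p = 0.0285) and not Cdkn1b (0.0948). The other 5 inhibitors had log2 fold changes between -0.25 (Cdkn2b) and 0.05 (Cdkn1a), with overlapping groups.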

How the data were processed

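RNA of 4 libraries of E13.5 ovaries was analysed. The authors aligned reads with STAR 2.6.1d to mm9, as their processing notes list, assigned them to genes with summarizeOverlaps, and deposited counts for every library, neither normalized nor pooled. The annotation and strand setting are not given in the sources used here. All sample columns were used (0 unused). Totals lay between 11036313 and 17869840, and a floor of 3 counts reflects counting error alone.

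The table of 34682 genes was fitted in R 4.3.3 with edgeR 4.0.16 (TMM factors, filterByExpr, 15442 genes left, quasi-likelihood F-test, genotype as the only factor, Benjamini-Hochberg adjustment over all genes, threshold 0.05). SEs were the absolute log2 fold change over the root of the F statistic, and 95% intervals from the t distribution with the fit's degrees of freedom. DESeq2 1.42.0, which the authors used, was an alternative, as were other scalings, filters, thresholds, the replicate block and leaving out each library. The fits were tested on simulated data. The libraries of a genotype differed by more than sampling noise (chi-square per degree of freedom 9.40 and 10.7). Log2 CPM used a prior count of 2. An exact permutation test of 2 against 2 libraries cannot give a p below 0.333.

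Lengths and positions came from GENCODE M1 (NCBIM37, the Ensembl name of mm9) and promoters from RefSeq (GRCm38.p6). The 40 genes, the further lists and the cell type markers were chosen with earlier results of these data known, so no list was tested. Values in every library were given for Mki67, Pcna, Mcm2, Top2a, Ccnb1, Cdk1 and the 5 genes of smallest p in each phase. Of the other genes, extremes of level and change were named, and of the further lists the 2 of smallest p in each direction. Per-library values of Cdc20, Ccne2, Uhrf1, Ccnd1, Cdkn1c and Cdkn1b were added after their values were seen. Some of the cell type markers are not reported here and were left out of the sums, a choice that did not use their values.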

Additional observations from a re-analysis of the deposited data

How the results depend on the processing

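The count of 0 called S phase and M phase genes was the same with DESeq2, other normalizations, other filters, the replicate block, an adjusted p under 0.1 and each library left out, and 1 S phase gene, Rrm1, had an unadjusted p under 0.05. Over all genes edgeR's 9 calls became 105 with DESeq2, 28 with no filter, 19 with at least 10 counts in every library, 20 when the adjusted threshold was 0.1, 878 at an unadjusted p under 0.05, and 4 to 130 with a library left out (4 without wild-type replicate 2, 38 without mutant replicate 2, 130 without mutant replicate 1). The replicate block gave 385 calls. The deviations of same-numbered libraries from the group means correlated at 0.481 over all genes and 0.629 over the 39 genes, and the common dispersion was 0.0210 without and 0.00639 with the block. Column names give neighbouring library numbers to same-numbered libraries, but with 2 pairs and labels that name no shared litter, batch or day the numbers were not taken to pair the libraries. With the replicate block 1 G1 and E2F regulator (Ccnd1) and 2 CDK inhibitors (Cdkn1c and Cdkn1b) were called, and among the cell type markers Tcf21, Pdgfra, Nr2f2, Kdr, Foxl2, Pax8, Slc4a1, Hbb-y and Alas2. The CDK inhibitors had 1 call with DESeq2, 0 to 1 with a library left out (1 without mutant replicate 1) and 2 at an unadjusted p under 0.05, and further replication genes and G1 and E2F regulators had 1 each at that threshold.

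With a library left out, the S phase median of -0.13 ranged from -0.16 (without mutant replicate 2) to -0.0534 (without wild-type replicate 2), with -0.0806 without mutant replicate 1. The M phase median of -0.07 ranged from -0.22 (without mutant replicate 1) to 0.0193 (without mutant replicate 2), with -0.0037 without wild-type replicate 1, so its sign rested on 1 library. Signs also turned for Mki67, which ranged from -0.20 (without mutant replicate 1) to 0.27, Pcna from -0.26 to 0.0237 (without wild-type replicate 2), Top2a from -0.24 to 0.00056 and Aurkb from -0.52 to 0.0226 (both without mutant replicate 2), and Ccnb1 from -0.27 to 0.16 (without wild-type replicate 2, and 0.016 without mutant replicate 2). Outside the libraries left out, 84 of 84 values of the named genes kept their sign and their side of the threshold. The 7 S phase and 3 M phase genes lower in both mutants were counted again after other scalings, a check added after the data were seen, and they were 7 and 3 to 4. The share of M phase promoters with a CHR word was 72.2% in the whole window and 38.9% in the bases before the start. For S phase promoters with an E2F word these shares were 50% and 35.7%. With 2 libraries per group, leaving one out assumes that the lone library varies like the other group. The cause of these shifts was not tested, and depth was lowest in mutant replicate 1.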
